A study of Mus musculus with 18 samples.

Results

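Daily ultrasound was compared with no ultrasound over 3 microfibre membranes, as the mean of 3 differences that were each taken within 1 membrane. All 18 of the 18 libraries of the series enter this mean, 9 with ultrasound and 9 without. The genes described are 256 members of 8 lists of cellular stress genes, all of them in the expression table. Of these, 236 were high enough to test, and 139 of the 236 had a difference of the same direction on each of the 3 membranes (76 higher with ultrasound and 63 lower). The other 20 did not reach 1 FPKM (fragments scaled for transcript length and for the total sequenced) in 3 libraries and were not tested.

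The cells were MC3T3-E1, an established line of mouse pre-osteoblasts, and polyadenylated RNA was sequenced. They were seeded at 20000 per well on discs 15 mm across that had been sterilised with Co60 radiation, and were cultured for 5 days. The discs were plain PLLA (poly-L-lactic acid, a biodegradable polyester), PLLA/ZnO (with zinc oxide) or PLLA/ZnO@Col (with zinc oxide and collagen), and the series describes the zinc oxide material as piezoelectric, giving charge under force. For each membrane, 3 libraries came from cells given ultrasound for 10 min a day (+US) and 3 from cells given none (-US), so zinc oxide was present on both sides of 2 of the 3 differences. The labels give no ultrasound frequency or intensity and do not say that replicates were grown apart, so the scatter behind each p-value is that of these libraries alone and may be technical. In such bulk RNA, fewer cells of a type and less RNA per cell cannot be told apart.

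Cells answer damage with a small number of gene programmes. Unfolded protein in the cytosol frees HSF1, which switches on heat shock chaperones; unfolded protein in the endoplasmic reticulum (ER) activates ATF6, IRE1 and PERK, and PERK raises translation of the transcription factor ATF4. Oxidants free NRF2 from KEAP1, low oxygen stabilises HIF1A, DNA damage activates p53, and free zinc binds MTF1, which induces metallothioneins. Stretch, serum and many other stimuli switch on immediate early genes such as Egr1 and Fos within minutes, and ultrasound can deliver heat and mechanical force to cells.

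Library totals were 48307580 to 78039543 counts. Col1a1 (500 to 1160 FPKM), Spp1 (637 to 3610 FPKM) and Runx2 (6.22 to 9.54 FPKM), genes of the osteoblast lineage, were present in all libraries, while Sp7, Alpl, Bglap and Ibsp, which mark more mature osteoblasts, reached at most 0.746, 0.178, 0.626 and 0.0286 FPKM. No marker of endothelium, epithelium or adipocytes was high enough to test. Other lists did hold tested markers, 9 of macrophage and osteoclast (list sum 41 to 70.9 FPKM) and 3 of skeletal and smooth muscle (238 to 919 FPKM). Osteocyte and kidney tubule had 2 each and chondrocyte 1. There were 2 sets of libraries that stood apart. In 3 libraries on PLLA/ZnO@Col, replicates 1 and 3 without ultrasound and replicate 1 with it, the 4 Y-linked genes summed to 0.185, 0.356 and 0.386 FPKM, and Thy1, a surface glycoprotein, was at 0.0709 to 0.128 FPKM against 2.55 to 5.79 elsewhere. These are called the Y-low libraries. In 4 libraries with ultrasound, PLLA/ZnO@Col replicates 2 and 3 and replicate 3 on each of PLLA and PLLA/ZnO, the Y-linked sum was 2.55 to 6.1 FPKM, and these are called the Y-intermediate libraries. It was 10.5 or more in the remaining 11. No Y-intermediate library lacked ultrasound, so in them ultrasound and whatever sets them apart cannot be told apart. PLLA +US replicate 3 also held all 12 markers of kidney tubule above 0, among them Kap at 62.4 FPKM, while Kap, Slc34a1, Umod, Slc22a6, Miox and Pck1 were at 0 in the other 17 libraries. Without Aqp1 the markers summed to 96 FPKM there and to 0.233 to 2.37 elsewhere. Aqp1, a water channel that other tissues also express, was at 56.8 to 78.5 FPKM in the Y-intermediate libraries and at 31.4 to 48.6 in the others. The part of these differences in the results was not tested, and the labels name no batch.

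No gene passed the test for the averaged difference. With edgeR's quasi-likelihood test, 0 of 11936 genes (0%) had a Benjamini-Hochberg adjusted p under 0.05, and the smallest was 0.363. At an unadjusted p under 0.05 there were 1444 genes (12.1%), of which 755 were higher with ultrasound (6.33%) and 689 lower (5.77%). DESeq2 called 1 gene (0.00838%), the predicted gene Gm6402 (lower, adjusted p = 0.0341), with 2066 at an unadjusted p under 0.05, and limma called 0, with 2059 at an unadjusted p under 0.05. Among the 236 stress genes, edgeR called 0, and 44 had an unadjusted p under 0.05 (18.6%), 20 of them higher and 24 lower. Within single membranes edgeR also called 0 genes, with 52 on PLLA (0.436%), 387 on PLLA/ZnO (3.24%) and 976 on PLLA/ZnO@Col (8.18%) at an unadjusted p under 0.05. The test of the difference between membranes called 0 genes, with 123 at an unadjusted p under 0.05 (1.03%). Every value for a stress gene below is therefore a level or a difference that did not pass the test with all 18 libraries.

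A shared direction on all 3 membranes was as frequent among stress genes as among all genes. Of all tested genes, 7023 had the same direction 3 times (58.8%), 3125 of them higher (26.2%) and 3898 lower (32.7%), and among stress genes the share was 58.9%. The lists differed in how their members split. Heat shock genes shared a direction in 29 of 33 (87.9%), DNA damage and p53 genes in 22 of 31 (71%), immediate early genes in 19 of 31 (61.3%) and ER stress genes in 16 of 28 (57.1%). Metal genes did so in 9 of 16 (56.2%), NRF2 antioxidant genes in 22 of 42 (52.4%), hypoxia genes in 14 of 29 (48.3%) and ATF4 targets in 10 of 29 (34.5%). All 14 hypoxia genes with a shared direction were lower, whereas 16 of 19 immediate early genes and 19 of 22 antioxidant genes were higher.

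**Figure D1:**
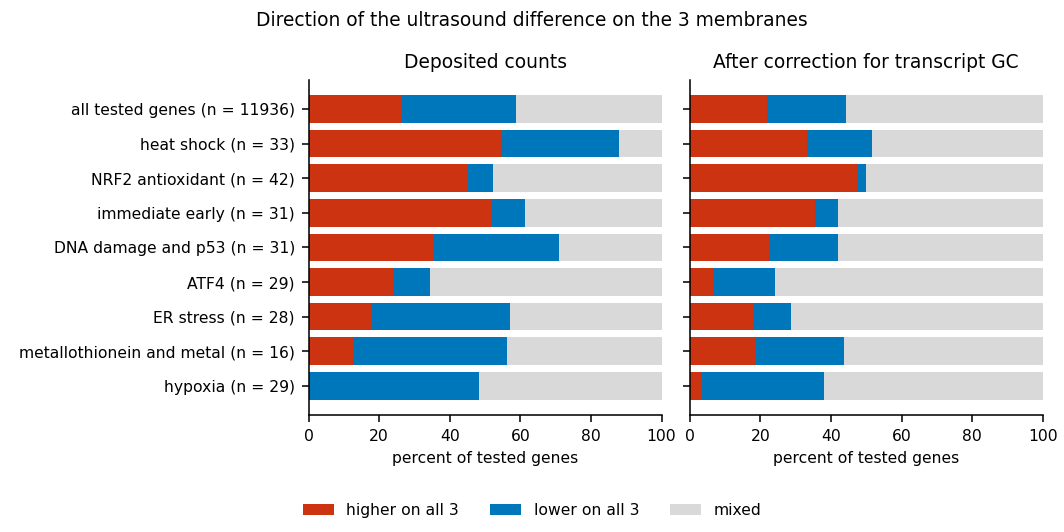
Percent of tested genes whose ultrasound difference was higher on all 3 membranes (red), lower on all 3 (blue) or mixed (grey), for all tested genes and for each stress list, from the deposited counts (left) and after a correction for transcript GC (right). On the left the heat shock list is longest in shared directions (87.9% against 58.8% of all genes, with all 18 libraries) and the hypoxia list holds no gene that was higher on all 3.

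The direction of a gene moved with its base composition. Across 11925 genes, which are not independent replicates, the averaged log2 fold change correlated with the GC percent of the transcript at a Spearman rho of 0.69 (0.60 on PLLA, 0.50 on PLLA/ZnO and 0.67 on PLLA/ZnO@Col). When genes were cut into 5 equal groups by GC, the group with the lowest GC (up to 43.9%) had a median log2 fold change of -0.41 and shared a direction in 83.6%, mostly downward (81.8% of its genes). The group with the highest GC (55.4% or more) had a median of 0.14. In the 236 stress genes, the 76 that were higher on all membranes had a median GC of 53.7% and the 63 that were lower 43.9%, against 54.2% and 43.9% in all genes with the corresponding direction.

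The same measure separated libraries. The median deviation of the GC-richest group of genes minus that of the GC-poorest, on the log2 scale, was -0.299 ± 0.44 (SD, n = 9) without ultrasound and 0.303 ± 0.698 (SD, n = 9) with it, a difference of 0.602 (two-sided exact permutation test within membranes, 8000 arrangements, p = 0.039; the measure was chosen after the data were seen). The 4 highest values were 1.4 in PLLA/ZnO +US replicate 3, 1.05 and 0.766 in PLLA/ZnO@Col +US replicates 2 and 3, and 0.689 in PLLA +US replicate 3, the 4 Y-intermediate libraries. The other 5 libraries with ultrasound lay between -0.451 and 0.255, inside the range of the libraries without it (-0.843 to 0.526). The 4 Y-linked genes are themselves GC-poor, with a median of 36.2% beside 49.7% of all tested genes. Their median averaged log2 fold change was -0.60, and -0.03 after the GC correction. The Y-linked sum and the GC measure of the Y-intermediate libraries are thus not separate marks. Leaving these libraries out is not a check apart from the GC correction. Mitochondrial genes took 2.98 ± 0.904% of counts without ultrasound and 2.52 ± 0.946% with it (SD, n = 9 each, exact permutation p = 0.31). The part of GC content in the ultrasound difference was not tested beyond the correction given here.

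**Figure D2:**
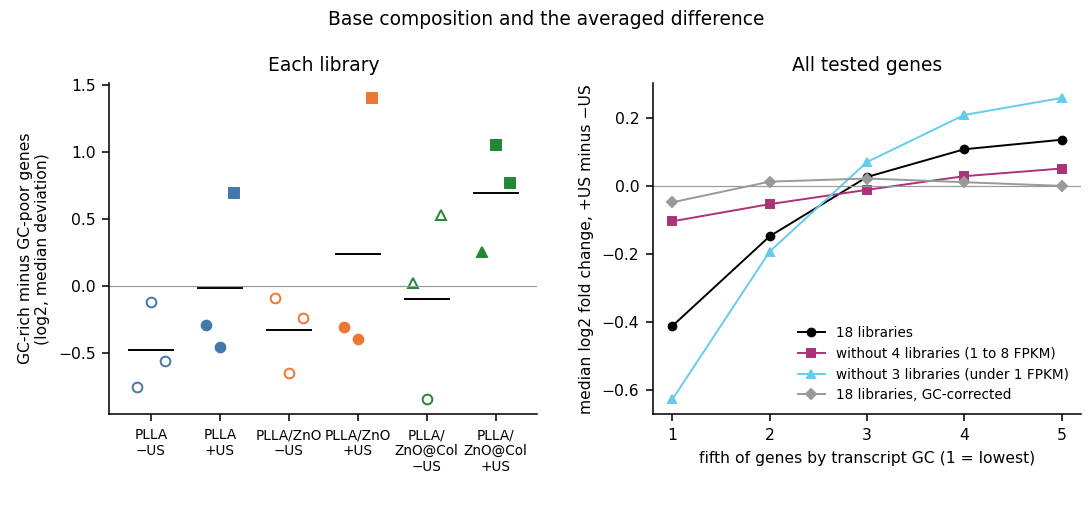
Left, log2 difference between the median deviation of GC-rich and GC-poor genes in each library (points; filled with ultrasound, open without; squares mark libraries with a Y-linked sum of 1 to 8 FPKM, triangles under 1 FPKM, circles more; lines are group means). Right, median averaged log2 fold change in each of 5 groups of genes by transcript GC, which runs from -0.41 to 0.14 with 18 libraries and from -0.10 to 0.05 without the 4 libraries drawn as squares.

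Leaving libraries out changed what passed the test. Without the 4 Y-intermediate libraries, 79 of 236 stress genes shared a direction (33.5%, against 33.1% of all genes). PLLA/ZnO@Col +US replicate 1, itself a Y-low library, is then alone in its group. The PLLA/ZnO@Col difference within each average rests on that library on the ultrasound side. Thy1, near 0 in the Y-low libraries, turned from a positive to a negative average there. All values given without the Y-intermediate libraries share this limit, and what their smaller averages reflect was not tested. Without the 3 Y-low libraries, edgeR called 1044 genes (8.75%; 737 or 6.17% higher and 307 or 2.57% lower), among them 45 stress genes (27 higher and 18 lower). That fit leaves PLLA/ZnO@Col -US replicate 2 alone in its group, and it is assumed to vary like the others. It was also the library with the lowest GC measure (-0.843). The ultrasound side of that membrane then holds only replicates 2 and 3, both Y-intermediate, with GC measures of 1.05 and 0.766. In this fit ultrasound on PLLA/ZnO@Col and the Y-intermediate state cannot be told apart. With the GC correction in addition, 223 genes were called (1.87%; 133 or 1.11% higher and 90 or 0.754% lower), of which 17 were stress genes (6 higher and 11 lower). The GC correction with all 18 libraries gave 0 calls and 1015 genes at an unadjusted p under 0.05 (8.5%), and 95 of 236 stress genes then shared a direction, against 44.2% of all genes.

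Heat shock genes nearly all shared a direction but divided between higher and lower. Of 33 tested members, 18 were higher on all 3 membranes, 11 lower and 4 mixed. An unadjusted p under 0.05 was reached by 6 higher and 2 lower members (24.2%, beside 12.1% of all genes). The median averaged log2 fold change of the list was 0.11, beside 0.01 for all genes. Without the Y-intermediate libraries 13 of 33 shared a direction (39.4%, beside 33.1% of all genes), and the median was 0.05. Small heat shock proteins and cochaperones (Hspb1, Hspb6, Hspb8, Cryab, Bag3, Stip1, Fkbp4) were on the higher side, as were HSP70 genes of the inducible cluster and Hsf1 itself. Families were divided: among DNAJ cochaperones Dnajb1 and Dnajb2 were higher and Dnaja1, Dnaja2, Dnajb4 and Dnajb6 lower, and of the cytosolic HSP90 genes Hsp90ab1 was higher and Hsp90aa1 lower. Hspa4 and Hspa4l, relatives of HSP110, were lower, while Hsph1, which encodes HSP110, was mixed.

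Bag3 (chromosome 7, 128523616 to 128546981, + strand), a cochaperone of HSP70 that directs damaged protein to autophagy, was at 46.8, 51.8 and 47.5 FPKM on PLLA without ultrasound and at 54.6, 53.8 and 65 with it. The PLLA/ZnO values were 45.4, 45.8 and 52.5 without and 57.6, 58.9 and 71.6 with ultrasound. On PLLA/ZnO@Col they were 64.3, 40.7 and 64.5 without and 74.3, 63 and 62.6 with. The groups thus did not overlap on PLLA and PLLA/ZnO and overlapped on PLLA/ZnO@Col. Of all tested genes, 4.99%, 6.82% and 5.28% lay wholly higher with ultrasound on PLLA, PLLA/ZnO and PLLA/ZnO@Col, and 5.8%, 4.62% and 5.74% wholly lower. The averaged log2 fold change was 0.28 (SE 0.10, edgeR adjusted p = 0.363). Without the Y-low libraries it was 0.43 (adjusted p = 0.0338), and with the GC correction as well 0.21 (adjusted p = 0.0613).

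Hspb1, which encodes the small chaperone HSP27, was low at 0.548 to 3.51 FPKM. It was at 1.44, 1.34 and 1.99 FPKM on PLLA without ultrasound and at 2.37, 2.51 and 3.51 with it, with no overlap. On PLLA/ZnO the values were 1.75, 1.64 and 1.67 without and 1.64, 1.72 and 2.69 with, and on PLLA/ZnO@Col 0.764, 1.56 and 0.632 without and 0.548, 2.85 and 2.17 with. Those groups overlapped, and within each group with ultrasound the highest values were those of the Y-intermediate libraries. The averaged log2 fold change was 0.63 (SE 0.26), and -0.07 without those 4 libraries. The latter value has PLLA/ZnO@Col +US replicate 1 (0.548 FPKM) as the only one of its group. On PLLA the remaining 2.37 and 2.51 with ultrasound still lay above all values without it. On PLLA/ZnO the remaining 1.64 and 1.72 did not.

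Hspa1b, an inducible HSP70 gene that heat raises many-fold in most cells, lay between 5.59 and 14.9 FPKM without ultrasound (median 11.6) and between 7.33 and 17.5 with it (median 12.5), and the sides overlapped on each membrane. Its averaged log2 fold change was 0.30 (SE 0.13), made of 0.12 on PLLA, 0.04 on PLLA/ZnO and 0.75 on PLLA/ZnO@Col. It was 0.14 without the Y-intermediate libraries and 0.16 after the GC correction, where the direction was no longer shared. Hspa1a, its near-identical neighbour, gave 0.28 (SE 0.15), or 0.09 without the Y-intermediate libraries, and reads may be split between the 2 copies in a way not given in the sources used here. Hspa8, the constitutive HSP70, was at 425 to 715 FPKM without and 534 to 767 with ultrasound (0.18, SE 0.10). Hsp90ab1, the constitutive HSP90, named after its values were seen, was at 935 to 1190 FPKM without and 1050 to 1390 with ultrasound, at 0.13. Dnajb1, a DNAJ cochaperone that heat also induces, had a log2 fold change of 0.11 (SE 0.10).

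The 2 members described next were on the lower side. Hsp90aa1, the inducible cytosolic HSP90, ran from 77.3 to 182 FPKM without ultrasound (median 103) and from 36.4 to 162 with it (median 88.8), with an averaged log2 fold change of -0.55 (SE 0.30). Dnaja1, an HSP40 cochaperone, ran from 13.3 to 25.8 without (median 16.9) and from 7.13 to 20.2 with ultrasound (median 11.4), at -0.44 (SE 0.20). Both were named after their values were seen. In both, the 4 lowest libraries with ultrasound were the Y-intermediate ones, and without these 4 the log2 fold changes were -0.10 and -0.15. The heat shock members that were higher on all membranes had a median GC of 54% and those that were lower 42%. After the GC correction, 17 of 33 shared a direction, and 11 of the 29 kept theirs. The heat shock median was 0.23 without the Y-low libraries and 0.12 with the GC correction added, beside 0.05 and 0.02 for all genes.

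Antioxidant genes were mainly higher with ultrasound. Of 42 tested NRF2 targets and redox enzymes, 35 had a positive averaged difference, beside 6129 of all 11936 genes. On all 3 membranes 19 were higher and 3 lower, and the median log2 fold change was 0.12. An unadjusted p under 0.05 was reached by 5, all higher. That is 11.9% of the list, about the share of all genes (12.1%). After the GC correction 37 of 42 were positive, beside 6130 of all 11936 genes. The list median was then 0.11, and 20 members were higher on all membranes and 1 lower. Without the 4 Y-intermediate libraries the median was 0.01, and 10 of 42 shared a direction (23.8%, beside 33.1% of all genes).

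Nqo1 (chromosome 8, 107388225 to 107403206, - strand), a quinone reductase and a standard NRF2 target, was at 61.1, 63.8 and 58.9 FPKM on PLLA without ultrasound and at 65, 78.5 and 80.5 with it. For PLLA/ZnO the values were 66.8, 65.6 and 60.1 without and 73.9, 69 and 95.3 with ultrasound. The PLLA/ZnO@Col libraries held 48.9, 74.2 and 61.1 without and 50.9, 92.8 and 74.4 with ultrasound. All libraries with ultrasound exceeded those without it on PLLA and PLLA/ZnO, but not on PLLA/ZnO@Col, where replicate 1 with ultrasound was low. The log2 fold changes were 0.25, 0.31 and 0.25, with an average of 0.27 (SE 0.11). The average was 0.42 after the GC correction and 0.05 without the Y-intermediate libraries.

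G6pdx, which encodes the first enzyme of the pentose phosphate pathway and supplies NADPH, and Osgin1, an oxidative stress target of NRF2, were the other leading members. G6pdx lay between 63.5 and 74.7 FPKM without ultrasound (median 64.7) and between 62.7 and 106 with it (median 76), a log2 fold change of 0.25 (SE 0.09), or 0.06 without the Y-intermediate libraries. Osgin1 lay between 3.27 and 6.42 (median 5.55) and between 5.62 and 7.59 (median 6.96), with 0.30, 0.33 and 0.36 on the 3 membranes and an average of 0.33 (SE 0.12). It was 0.29 without the Y-intermediate libraries. Hmox1, the heme oxygenase that oxidants and heme induce, did not follow: it was at 48.7 to 123 FPKM without and 48.7 to 124 with ultrasound, its 3 differences were 0.36, -0.13 and -0.18, and their mean was 0.02 (SE 0.16), or 0.18 without the Y-intermediate libraries. Gpx3, an extracellular glutathione peroxidase that kidney tubule makes in quantity, was at 23.2 FPKM in PLLA +US replicate 3, the library with kidney markers, and at most 2.11 elsewhere. Gclm, a subunit of the enzyme that starts glutathione synthesis, was at 0.10 and 0.11 on PLLA and PLLA/ZnO and at -0.47 on PLLA/ZnO@Col (unadjusted p for the difference between membranes = 0.031, adjusted p = 1 over all genes). Its average was -0.08 (SE 0.09), and 0.34 after the GC correction. The median of the antioxidant list was 0.254 without the Y-low libraries and 0.185 with the GC correction added, beside 0.05 and 0.02 for all genes.

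Antioxidant response elements, the DNA sites of NRF2, follow the letters TGACNNNGC. In the 250 bases before the RefSeq start (GRCm38.p6, both strands searched), 10.2% of 32851 promoter windows hold this motif, and 7 of the 36 list genes that have a window (19.4%) do. G6pdx is 1 of them and the only one with a shared direction. Its window is shown with the motif in capitals (chrX:74428881-74429130, - strand), where it reads on the opposite strand. The match describes these letters only.
G6pdx: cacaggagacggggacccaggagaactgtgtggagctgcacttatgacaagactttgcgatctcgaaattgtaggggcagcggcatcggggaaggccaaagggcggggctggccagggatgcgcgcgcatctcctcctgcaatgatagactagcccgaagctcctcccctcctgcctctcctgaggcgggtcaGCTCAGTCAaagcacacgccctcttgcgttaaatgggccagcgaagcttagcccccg

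Among 31 tested immediate early genes, 27 had a positive averaged difference, beside 6129 of all 11936 genes. On all 3 membranes 16 were higher and 3 lower. The median averaged log2 fold change was 0.16. There were 5 members with an unadjusted p under 0.05 on the higher side and 1 on the lower (19.4%, beside 12.1% of all genes). Members that were higher on all membranes had a median GC of 56.4%. After the GC correction the median was 0.08, and 11 were higher and 2 lower on all membranes.

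Egr1, a zinc finger transcription factor induced by stretch and growth factors, was at 54.3, 59.6 and 25.2 FPKM on PLLA without ultrasound and at 71.3, 66 and 43.4 with it. On PLLA/ZnO the values were 26.4, 23.8 and 26 without and 32.6, 31.3 and 35.2 with ultrasound. On PLLA/ZnO@Col they were 36.1, 55.7 and 56.2 without and 70.9, 80.7 and 93.5 with. The groups did not overlap on PLLA/ZnO and PLLA/ZnO@Col and overlapped on PLLA, where replicate 3 was low on both sides. The averaged log2 fold change was 0.49 (SE 0.16, unadjusted p = 0.0069, adjusted p = 0.363). It was 0.36 after the GC correction and 0.48 both without the Y-low and without the Y-intermediate libraries, and was called in none of these fits.

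Junb, an AP-1 subunit, lay between 49.7 and 94.8 FPKM without ultrasound and between 60.3 and 111 with it (0.32, SE 0.12), and Srf, the factor that drives many immediate early genes, between 23 and 34.5 and between 29.9 and 47.3 (0.25, SE 0.09). Without the Y-intermediate libraries they were at 0.15 and 0.16. The sides overlapped on each membrane for Junb, and for Srf on PLLA and PLLA/ZnO@Col but not on PLLA/ZnO. Fos, the other AP-1 partner, overlapped on each membrane. It was at 9.91, 11.6 and 2.26 FPKM on PLLA without ultrasound and 15.4, 12.4 and 5.64 with it, at 3.98, 3.12 and 3.24 against 4.04, 3.42 and 2.78 on PLLA/ZnO, and at 1.33, 6.96 and 9.1 against 8.27, 13.4 and 14.3 on PLLA/ZnO@Col. Its averaged log2 fold change was 0.51 (SE 0.34). Junb and Srf were called without the Y-low libraries (adjusted p = 0.0381 each) but not with the GC correction added (0.0913 and 0.201).

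**Figure D3:**
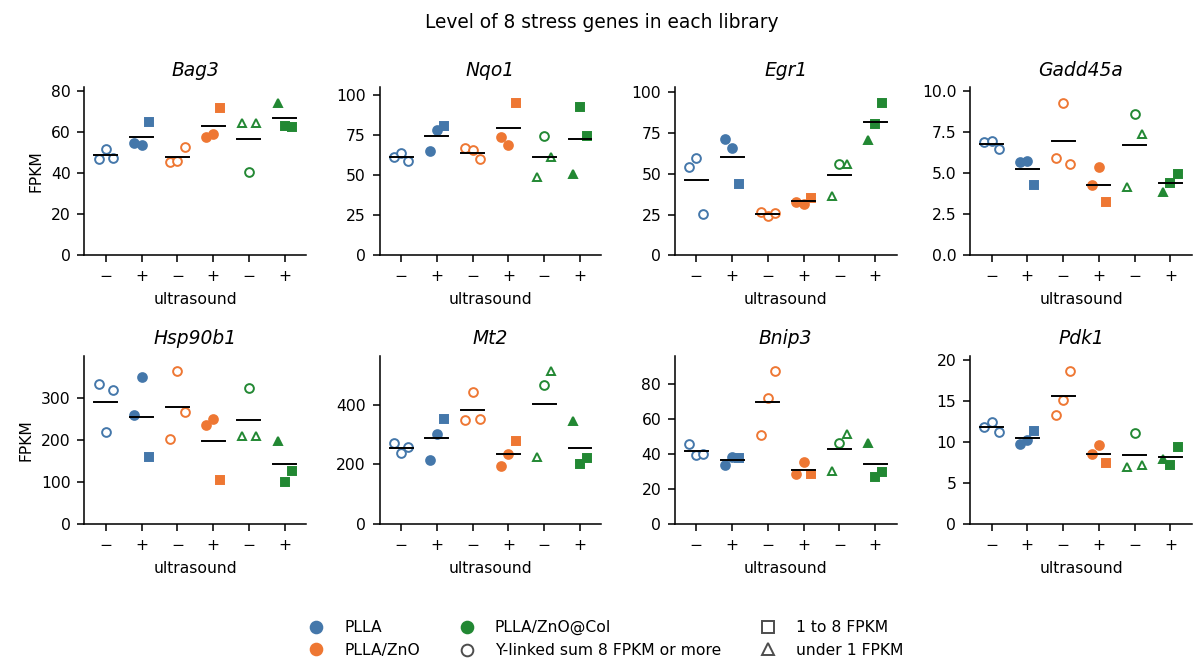
FPKM of 8 stress genes in each of the 18 libraries (points; filled with ultrasound, open without; squares mark libraries with a Y-linked sum of 1 to 8 FPKM, triangles under 1 FPKM, circles more; lines are group means). Bag3, Nqo1 and Egr1 lie higher with ultrasound and Gadd45a, Hsp90b1 and Bnip3 lower by group mean on each membrane, while Mt2 is higher on PLLA and lower on the other membranes.

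DNA damage and p53 genes split evenly, with 11 higher and 11 lower on all 3 membranes among 31 tested. The median averaged log2 fold change was 0.01, equal to that of all genes to 2 decimals. There were 4 higher and 2 lower members at an unadjusted p under 0.05 (19.4%, beside 12.1% of all genes).

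Gadd45a (chromosome 6, 67035096 to 67037406, - strand), a p53 and ATF4 target that slows the cell cycle after DNA damage, was at 6.89, 6.93 and 6.49 FPKM on PLLA without ultrasound and at 5.68, 5.73 and 4.28 with it. The PLLA/ZnO libraries held 5.94, 9.29 and 5.55 without and 4.26, 5.35 and 3.24 with ultrasound. The PLLA/ZnO@Col values were 4.14, 8.6 and 7.38 without and 3.87, 4.41 and 4.94 with. The groups did not overlap on PLLA and PLLA/ZnO, and on PLLA/ZnO@Col the low replicate 1 without ultrasound lay within the range of the libraries with it. The averaged log2 fold change was -0.56 (SE 0.15, unadjusted p = 0.00219, adjusted p = 0.363). Its transcript has 49.8% GC, close to the median of all genes, and the GC correction left it at -0.57. Without the Y-intermediate libraries it was -0.51. It passed without the Y-low libraries (-0.63, edgeR adjusted p = 0.0402) and with the GC correction added (-0.67, adjusted p = 0.046).

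Cdkn1a, which encodes the p53-induced cell cycle inhibitor p21, was on the other side: 73.4 to 123 FPKM without ultrasound (median 82.3) and 86.6 to 125 with it (median 102). Its log2 fold changes were 0.29, 0.19 and 0.29, with an average of 0.26 (SE 0.11). Btg2, an antiproliferative p53 target that is also an immediate early gene, gave 0.34 (SE 0.13), and 0.13 without the Y-intermediate libraries. Gtse1, a mitotic gene that holds p53 in check, gave 0.28 (SE 0.09), and 0.22 without them. Both were called without the Y-low libraries (adjusted p = 0.0409 and 0.0274) and also with the GC correction added (0.0489 and 0.0362), whereas Cdkn1a was called only before that correction (0.0487, then 0.0991).

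ER stress genes were lower more often than higher on all membranes, 11 against 5 of 28 tested, although their median averaged log2 fold change was 0.03. The 2 members with an unadjusted p under 0.05, Hsp90b1 and Hspa5, were both lower (7.14% of the list, beside 12.1% of all genes). After the GC correction 8 of 28 shared a direction, 5 higher and 3 lower. The list median was 0.06 without the Y-low libraries and 0.02 with the GC correction added, beside 0.05 and 0.02 for all genes.

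Hspa5 (BiP) and Hsp90b1 (GRP94), the main HSP70 and HSP90 chaperones of the ER lumen, are classical targets of ATF6 through the ER stress element, the letters CCAAT and CCACG with 9 bases between. Of the 250-base windows before RefSeq starts, 0.113% hold these letters on either strand, and 9 of the 25 list genes with a window (36%) do. The windows of both genes are shown because they lead the list, with matches in capitals. Hspa5 lies on chr2:34771840-34772089, + strand, with 1 match.
Hspa5: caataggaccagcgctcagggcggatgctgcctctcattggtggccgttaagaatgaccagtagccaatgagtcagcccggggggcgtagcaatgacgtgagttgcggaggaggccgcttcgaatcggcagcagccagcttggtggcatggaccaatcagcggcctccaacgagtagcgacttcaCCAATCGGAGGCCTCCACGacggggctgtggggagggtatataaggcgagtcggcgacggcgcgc
The Hsp90b1 window is chr10:86705445-86705694, - strand, with 2 matches, 1 of them read on the opposite strand.
Hsp90b1: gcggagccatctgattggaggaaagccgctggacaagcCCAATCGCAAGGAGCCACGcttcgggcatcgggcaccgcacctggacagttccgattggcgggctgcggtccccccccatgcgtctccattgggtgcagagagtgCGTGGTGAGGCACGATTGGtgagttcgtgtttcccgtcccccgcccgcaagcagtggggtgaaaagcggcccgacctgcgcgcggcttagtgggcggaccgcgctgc
The sequences are from RefSeq, and factor binding was not measured here.

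Hspa5 was at 133, 137 and 131 FPKM on PLLA without ultrasound and at 133, 141 and 119 with it. The PLLA/ZnO libraries held 125, 145 and 126 without and 113, 120 and 85.9 with ultrasound. On PLLA/ZnO@Col the values were 110, 130 and 119 without and 104, 95.3 and 112 with. The PLLA/ZnO groups did not overlap, and the other groups did. The averaged log2 fold change was -0.19 (SE 0.08), -0.10 without the Y-intermediate libraries and -0.01 after the GC correction. Hsp90b1, with a transcript GC of 42.1%, ran from 203 to 362 FPKM without ultrasound (median 265) and from 101 to 348 with it (median 197), at -0.49 (SE 0.22). The 4 lowest libraries were again the Y-intermediate ones (101 to 159 FPKM). Without them the log2 fold change was -0.14, and with the GC correction -0.15. Pdia3, an ER disulphide isomerase, was at -0.22 (SE 0.10), or -0.12 without them, and Ddit3 (CHOP), the transcription factor of prolonged ER stress, at -0.25 (SE 0.18), or 0.05 without them.

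ATF4 targets showed the smallest share of a common direction, with 7 higher and 3 lower of 29 tested. Gdf15, a secreted stress cytokine, was low and higher with ultrasound on each membrane (0.372 to 1.47 FPKM without, median 0.468, and 0.512 to 1.38 with, median 0.795), with an averaged log2 fold change of 0.54 (SE 0.24). Vldlr, a lipoprotein receptor, was at 1.57 to 3.69 without and 1.05 to 2.09 with ultrasound (-0.52, SE 0.17), and Cebpg, a partner of ATF4, at 4.09 to 6.48 and 2.29 to 4.75 (-0.45, SE 0.16, or -0.20 without the Y-intermediate libraries). Without the Y-low libraries the averages of Gdf15, Vldlr and Cebpg were 0.83, -0.72 and -0.62. They were 0.58, -0.31 and -0.18 with the GC correction added. Trib3, a pseudokinase that restrains ATF4, had differences of 0.15, -0.22 and -0.56 and a mean of -0.21 (SE 0.16), or -0.13 without the Y-intermediate libraries. With the GC correction and without the Y-low libraries, Trib3 was at -0.47.

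**Figure D4:**
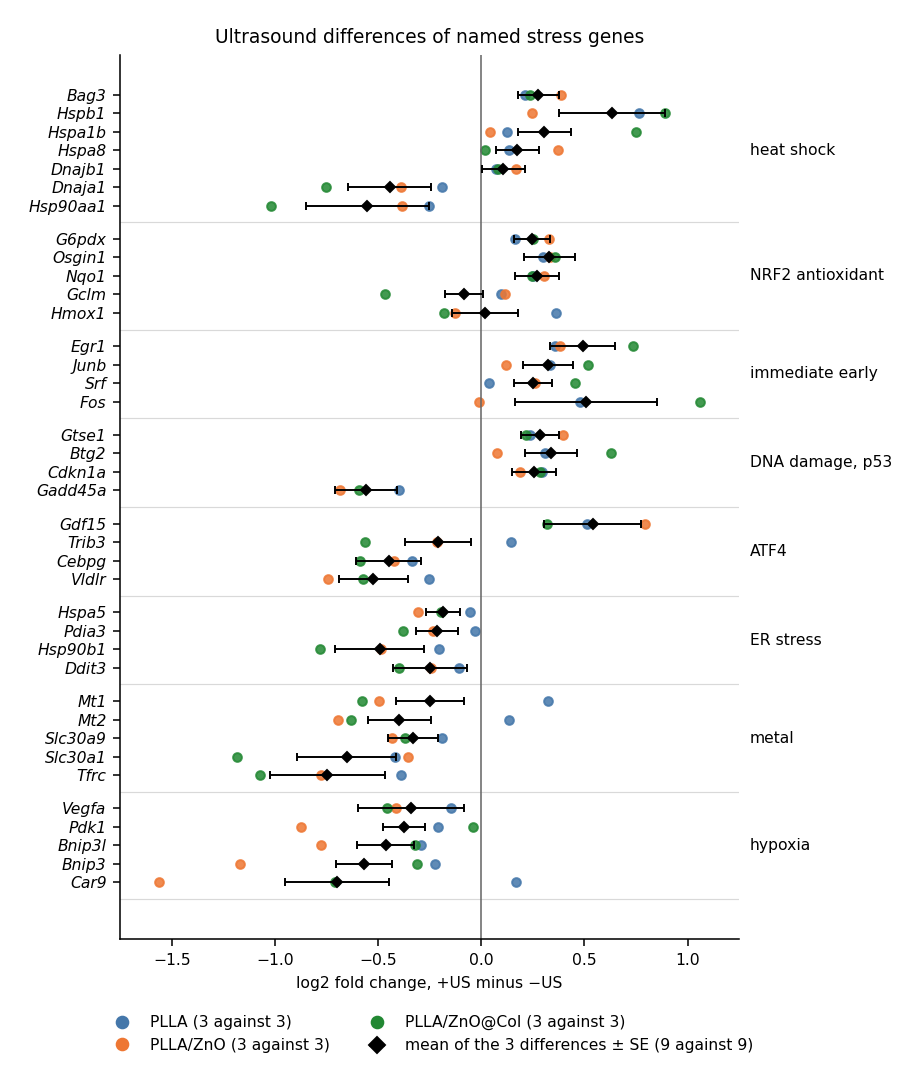
Log2 fold change of named stress genes, +US minus -US, on each membrane (coloured points, 3 libraries against 3) and the mean of the 3 differences with its SE (black diamonds, 9 against 9). Bag3, Nqo1, Osgin1, Egr1 and Cdkn1a have all 3 points above 0, Gadd45a, Hsp90b1, Tfrc and Bnip3 all 3 below it, and Hmox1, Gclm, Mt1, Mt2 and Car9 points on both sides.

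Of 29 tested hypoxia genes, 25 had a negative averaged difference, beside 5807 of all 11936 genes. On all 3 membranes 14 were lower and none higher. The median averaged log2 fold change was -0.24. There were 11 members at an unadjusted p under 0.05, all lower (37.9%, beside 12.1% of all genes). The medians were -0.08 on PLLA, -0.49 on PLLA/ZnO and -0.08 on PLLA/ZnO@Col. The median stayed at -0.25 after the GC correction, -0.23 without the Y-intermediate and -0.20 without the Y-low libraries. It was -0.23 with the GC correction and without the Y-low libraries.

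Bnip3 (chromosome 7, 138890836 to 138909519, - strand), a HIF target that promotes removal of mitochondria, was at 45.8, 39.1 and 40.2 FPKM on PLLA without ultrasound and at 33.9, 38 and 37.8 with it. On PLLA/ZnO it was at 50.7, 71.6 and 86.9 without and 28.8, 35.3 and 28.8 with ultrasound. On PLLA/ZnO@Col it was at 30.2, 46 and 51.3 without and 46, 26.6 and 29.4 with. The groups did not overlap on PLLA and PLLA/ZnO, and 2 libraries without ultrasound on PLLA/ZnO held the highest values of the 18. The log2 fold changes were -0.22, -1.17 and -0.31 (unadjusted p for the difference between membranes = 0.0213, adjusted p = 1), and the average was -0.57 (SE 0.14, unadjusted p = 0.000753, adjusted p = 0.363). Its transcript has 41.6% GC. After the GC correction the average was -0.13, and -0.40 without the Y-intermediate libraries.

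The hypoxia response core is ACGTG, found on either strand in 16.6% of the 250-base windows and in 19 of the 28 list genes with a window (67.9%). GCGTG, the other form of the core, is in 28.2% of all windows and in 20 of the 28 (71.4%). The Bnip3 window (RefSeq GRCm38.p6, chr7:138909507-138909756, - strand) is shown because the gene led the list. Its 2 matches to ACGTG, 1 per strand, overlap in the palindrome in capitals. The window also holds GCGTG, which is not marked.
Bnip3: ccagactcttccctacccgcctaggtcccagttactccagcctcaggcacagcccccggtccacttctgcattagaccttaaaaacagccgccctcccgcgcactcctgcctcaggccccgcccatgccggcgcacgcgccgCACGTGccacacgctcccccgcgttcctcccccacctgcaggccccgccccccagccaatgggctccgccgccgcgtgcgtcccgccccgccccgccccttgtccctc

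Pdk1, a kinase that keeps pyruvate out of mitochondria, was at 11.8, 12.4 and 11.2 FPKM on PLLA without ultrasound and 9.72, 10.3 and 11.3 with it. On PLLA/ZnO it was at 13.3, 15.1 and 18.6 against 8.55, 9.61 and 7.43, and on PLLA/ZnO@Col at 6.99, 11.1 and 7.19 against 7.89, 7.22 and 9.37. The groups did not overlap on PLLA/ZnO and overlapped on the other membranes. The log2 fold changes were -0.21, -0.88 and -0.04 (unadjusted p for the difference = 0.0095, adjusted p = 1), with an average of -0.37 (SE 0.10). Bnip3l, a paralogue of Bnip3, gave -0.46 (SE 0.14), with -0.09 after the GC correction and -0.24 without the Y-intermediate libraries. Car9, a carbonic anhydrase and a standard HIF target, differed in direction: 0.17 on PLLA, -1.56 on PLLA/ZnO and -0.71 on PLLA/ZnO@Col, with an average of -0.70 (SE 0.25) and -0.80 after the GC correction. Car9 reached 21 FPKM in PLLA/ZnO -US replicate 3 and at most 9.41 elsewhere.

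The average of Vegfa, the main angiogenic growth factor, rested on 1 library. It was at 17, 76.6 and 13.6 FPKM on PLLA/ZnO@Col without ultrasound and at 15.5, 29.6 and 31.5 with it. On PLLA it was at 32.5, 27.4 and 28.8 without and 24.1, 29.6 and 28.2 with, and on PLLA/ZnO at 27.8, 30.7 and 30.8 without and 20.4, 25.5 and 21 with ultrasound. The PLLA/ZnO groups did not overlap. The average was -0.34 (SE 0.26), -0.55 without the Y-intermediate libraries, 0.04 without PLLA/ZnO@Col -US replicate 2, and -0.61 when that replicate stood alone in its group, in the fit without the Y-low libraries (adjusted p = 0.0142).

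Genes of zinc and metal handling were lower in 7 and higher in 2 of 16 tested members on all 3 membranes. Their median averaged log2 fold change was -0.16. An unadjusted p under 0.05 was reached by 4 members, all lower (25%, beside 12.1% of all genes). After the GC correction the median was -0.03, with 3 higher and 4 lower on all membranes. Slc30a1, the zinc exporter of the plasma membrane and an MTF1 target, was at 1.67, 1.55 and 1.56 FPKM on PLLA without ultrasound and 1.39, 1.17 and 1.09 with it, with no overlap. On PLLA/ZnO it was at 1.72, 1.59 and 1.5 against 1.47, 1.63 and 0.649, and on PLLA/ZnO@Col at 1.72, 4.68 and 1.28 against 1.59, 0.796 and 0.932. Both of these pairs overlapped, and the 4.68 of PLLA/ZnO@Col -US replicate 2 stood alone. The average was -0.65 (SE 0.24), and -0.34 without the Y-intermediate libraries. It was called without the Y-low libraries (-1.05, adjusted p = 0.0261) and with the GC correction added (-0.86, adjusted p = 0.0108), fits in which that replicate is the only one of its group.

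The metallothioneins Mt1 and Mt2, which bind zinc, had no common direction. Mt2 (chromosome 8, 94172664 to 94173568, + strand) was at 272, 238 and 259 FPKM on PLLA without ultrasound and 216, 300 and 353 with it. On PLLA/ZnO it was at 349, 442 and 353 without and 193, 235 and 279 with, and on PLLA/ZnO@Col at 226, 467 and 511 without and 346, 202 and 221 with ultrasound. The PLLA/ZnO groups did not overlap, and the others did. The log2 fold changes were 0.13, -0.70 and -0.63 (unadjusted p for the difference between membranes = 0.0797), with an average of -0.40 (SE 0.15) and -0.52 after the GC correction. Mt1 followed with 0.32, -0.49 and -0.58 and an average of -0.25 (SE 0.16), or -0.12 without the Y-intermediate libraries. Without the Y-low libraries Mt2 was at -0.54 and Mt1 at -0.39, and with the GC correction added at -0.77 and -0.57. In these fits PLLA/ZnO@Col -US replicate 2 (467 FPKM of Mt2) is the only one of its group. The Y-low libraries left out held 226 and 511 FPKM of Mt2 without and 346 with ultrasound.

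Tfrc, the transferrin receptor that brings iron into cells, was at 6.08 to 13.8 FPKM without ultrasound (median 7.28) and 1.94 to 9.05 with it (median 5.84), and its log2 fold changes were -0.39, -0.78 and -1.07. The average was -0.75 (SE 0.28). Tfrc has a transcript GC of 39.8%, the 4 Y-intermediate libraries held the 4 lowest values (1.94 to 4.81), and the average was -0.33 after the GC correction and -0.29 without them. Slc30a9, another zinc transporter, gave -0.33 (SE 0.12), with -0.08 after the GC correction and -0.18 without the Y-intermediate libraries.

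**Figure D5:**
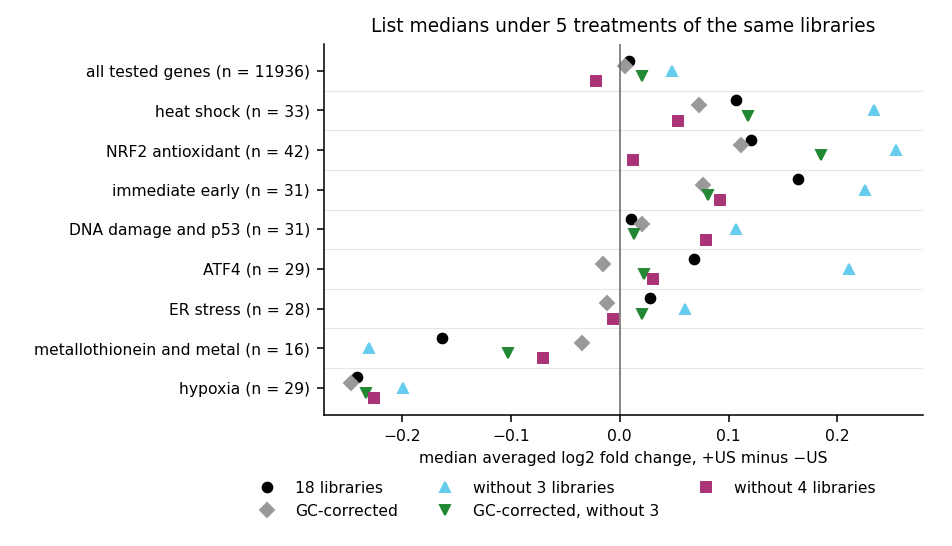
Median averaged log2 fold change, +US minus -US, of each stress list and of all tested genes with 18 libraries, after the GC correction, without the Y-low libraries, with both changes, and without the 4 Y-intermediate libraries. The hypoxia median stays between -0.25 and -0.20 in all 5, and the antioxidant and heat shock medians are above 0 in all 5 but move between 0.01 and 0.25.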

How the data were processed

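Per the file headers, the authors deposited raw counts for each gene in each library beside FPKM values. The submitters' processing notes name cutadapt 1.9, FastQC and the build GRCm38. How reads were aligned, and how the counting treated strand and shared reads, is not stated in these sources.

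Of 30452 genes, 11936 with at least 1 FPKM in at least 3 libraries were tested. TMM-normalized counts were fitted with 1 mean per group (12 residual degrees of freedom), and the mean of the 3 within-membrane differences was tested two-sided with edgeR 4.0.16 in R 4.3.3 (quasi-likelihood), with Benjamini-Hochberg adjustment over all tested genes and a threshold of 0.05. The common biological coefficient of variation was 28%, so scatter between libraries more than depth limited precision. Alternatives were DESeq2 1.42.0, limma 3.58.1 on log2(FPKM + 1) or log2(FPKM + 0.1), other filters and scalings, an additive membrane term, a replicate block and each library left out. Added after the data were seen were an offset per library that removes a loess trend on transcript GC (GENCODE transcripts, GRCm38) and fits without the libraries that stood apart. The test was checked on simulated counts. No replicate pair agreed within sampling noise (lowest chi-square per degree of freedom 15.85).

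The lists and their members were chosen with earlier results of these data known, and a list is described by counts and its median, with no test. A direction is shared where the 3 differences have 1 sign, whatever their size. Genes were named by a rule: in each list the 3 members with the smallest unadjusted p among those with a shared direction, the member that differed most between membranes, and a panel of standard stress genes, and over all genes the 8 higher and 8 lower with the smallest p, at least 2 FPKM and a shared direction. Some are left out for length or are not reported here. There were 5 genes in more than 1 stress list. Motif letters and windows were settled after a first search with looser letters, and the 4 promoters printed were picked from named genes whose windows hold a match. The windows of Hspa1b and Nqo1, looked at first, hold no match to these letters.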

Additional observations from a re-analysis of the deposited data

How the results depend on the processing

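The count of 0 genes for the averaged contrast held in the edgeR fits with all libraries (other size factors, filters, an additive membrane term, the GC correction) and in limma. It was 1 in DESeq2, which also called 5 genes on PLLA/ZnO and 3 on PLLA/ZnO@Col. Leaving out single libraries gave 0 to 1 calls for the average, 0 to 1 on PLLA/ZnO and 0 to 38 on PLLA/ZnO@Col, where 38 came without PLLA/ZnO@Col +US replicate 1 and the 1 (Gm43302) without PLLA/ZnO +US replicate 2. The count at an unadjusted p under 0.05 then ran from 682 (without PLLA +US replicate 3) to 3613 (without PLLA/ZnO@Col -US replicate 3). Leaving out the Y-low libraries gave 1044 calls for the average, 111 on PLLA/ZnO@Col and 6 between membranes, and 223, 181 and 14 with the GC correction added, with 167 genes called in both averages. Without the 4 Y-intermediate libraries 79 stress genes shared a direction, with PLLA/ZnO@Col +US replicate 1 alone in its group.

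Directions of single genes turned as follows. The gene Hmox1 was at -0.00685 and -0.00683 in limma (pseudocounts 1 and 0.1), -0.0101 with a filter of 5 FPKM, -0.0773 with the GC correction, -0.167 without the Y-low libraries, -0.345 with both, and -0.109 to 0.0901 with single libraries left out. Gclm was at 0.336 with the GC correction, 0.0205 without the Y-intermediate libraries, 0.54 with the GC correction and without the Y-low, 0.12 on PLLA and PLLA/ZnO together, and 0.15 there without 2 Y-intermediate libraries. Without the Y-intermediate libraries Hspb1 was at -0.0745 and Ddit3 at 0.0498. Hspa5 was at 0.0491 with the GC correction and without the Y-low, Hsp90aa1 at 0.0593 on PLLA and PLLA/ZnO without the 2 libraries, and the gene Vegfa at -0.447 to 0.0371 with single libraries left out. The cause of these turns was not tested.

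Replicate numbers gave no uniform pairing of the samples. Deviations of same-numbered libraries within a membrane correlated at -0.42 to 0.35, above 0.1 in 3 of 9 pairs. Without the limit to 1 membrane the range was -0.49 to 0.71. Replicate 3 with ultrasound was a Y-intermediate library on each membrane. Whether same-numbered libraries were handled together was not tested. With a replicate block 0 genes were called for the average and 2522 had an unadjusted p under 0.05 (1444 without it).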

Other observations

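Cell cycle genes had a common direction about as often as heat shock genes. Of 34 tested, 22 were higher with ultrasound on all 3 membranes and 8 lower, and the median averaged log2 fold change was 0.12. An unadjusted p under 0.05 was reached by 11, all higher (32.4%, beside 12.1% of all genes). Unlike the heat shock list, 23 shared a direction after the GC correction, 22 of them higher, with a median of 0.16. Plk1 and Aurka, kinases that drive mitosis, were among the 8 genes with the smallest p on the higher side of all genes. Plk1 lay between 42.1 and 68.2 FPKM without ultrasound and between 61.3 and 83 with it (log2 fold change 0.38, SE 0.10), and Aurka between 26.2 and 34.3 and between 31.1 and 45.1 (0.32, SE 0.08, or 0.16 without the Y-intermediate libraries). Plk1 was called without the Y-low libraries (adjusted p = 0.0177) and with the GC correction added (0.0142). Its log2 fold change was 0.27 without the 4 Y-intermediate libraries. The list median was 0.26 without the Y-low libraries and 0.23 with the GC correction added, beside 0.05 and 0.02 for all genes. With the 4 Y-intermediate libraries left out, 8 of 34 shared a direction (23.5%, beside 33.1% of all genes).

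The 16 genes named over all genes were picked by the smallest p of this same difference, which favours groups that do not overlap. How many of all tested genes do not overlap on any membrane was not counted. Atoh8, a helix-loop-helix transcription factor, was the only gene among the 16 whose groups did not overlap on any membrane. It was at 11.4, 12.5 and 12.4 FPKM against 13, 15 and 16.6 on PLLA, 13.5, 11.1 and 14.2 against 14.2, 14.4 and 18.9 on PLLA/ZnO, and 9.13, 6.38 and 8.62 against 9.3, 20 and 17.6 on PLLA/ZnO@Col. On PLLA/ZnO the sides were apart by less than the rounding, at 14.2. The average was 0.50 (SE 0.13), and 0.20 without the Y-intermediate libraries. Rnpep (an aminopeptidase), Agpat3 (a lipid acyltransferase), Crat (carnitine acetyltransferase) and Sorbs3 (vinexin, an adhesion adaptor) were also on the higher side, at 0.31 to 0.40, and at 0.16 to 0.29 without the Y-intermediate libraries. On the lower side Il1rl1, the receptor of IL-33, was at 24 to 68.6 FPKM without and 18 to 30.8 with ultrasound (-0.50, SE 0.13, and -0.16 after the GC correction), and Nanp, Cdc14b and Hyls1 were at -0.67, -0.70 and -0.63, and at -0.45, -0.57 and -0.37 without the Y-intermediate libraries.

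The 13 transcripts of the mitochondrial genome had a median of -0.20, and 0.36 after the GC correction, with 12 lower before it and all 13 higher after it. Their median transcript GC was 37.1%. Macrophage and osteoclast markers (9 tested) were lower on all membranes in 5, with a median of -0.41, and 0.22 without the 4 libraries. In osteoblast genes 4 of 14 shared a direction.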
